A study of Mus musculus with 16 samples.

Results

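The comparison set the brachiocephalic arteries of 4 Apoe-/-Mif-/- mice against those of 4 Apoe-/- mice, all after 24 weeks of a high-cholesterol diet. These 8 libraries, chosen by the genotype and diet duration in their labels, were 8 of the 16 in the series, and the other 8 held the same genotypes after 42 weeks. Both groups consisted of females without Apoe, which encodes an apolipoprotein that clears cholesterol-rich particles through the liver, so the Apoe-/- group was itself a disease model and no mouse with intact Apoe was compared. They ate chow until 6 weeks of age and then a diet with 0.2% cholesterol and 21.2% fat. Each library held polyadenylated RNA of 1 mouse, scraped as whole vessel from 3 to 4 pooled frozen sections of 5 µm, so it mixed all the cells on the slide, and 1 ng of RNA was amplified by Smart-seq2. Libraries are numbered within each group in the order of their deposition, and a number pairs nothing across groups.

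The Mif gene encodes macrophage migration inhibitory factor, a cytokine that binds CD74 with CD44 as its signalling partner and also engages the chemokine receptors CXCR2, CXCR4 and ACKR3. In atherosclerosis it is known for recruiting monocytes and T cells to the vessel wall. The brachiocephalic artery leaves the aortic arch close to the heart, is wrapped in fat that can include brown adipocytes, and lies near the thymus and skeletal muscle of the upper chest.

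The 24-week count tables summed to between 1099838 and 8649518 reads per library, and levels are given as CPM, the reads of a gene per 1000000 reads after scaling by edgeR. Of 55356 genes in the table, 10634 had enough reads to be tested. Apoe-/- libraries 1 and 4 stood apart from libraries 2 and 3 of their group: mitochondrial transcripts made up 10.2% and 6.31% of their reads, against 0.751% and 1.08%, and 1.08% to 3.06% in the Apoe-/-Mif-/- libraries. The median Spearman correlation between libraries was 0.485 within the Apoe-/- group, 0.626 within the Apoe-/-Mif-/- group and 0.531 between them, each over all tested genes. All 4 Apoe-/-Mif-/- libraries came from plate row C and the other 12 libraries of the series from row B, so genotype and plate row cannot be told apart at 24 weeks. In these bulk samples, fewer cells of a type and less RNA per cell cannot be told apart either.

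Mif itself was low in every Apoe-/-Mif-/- library. It stood at 122, 105, 161 and 177 CPM in Apoe-/- libraries 1 to 4 and at 8.51, 17.0, 5.88 and 19.9 CPM in Apoe-/-Mif-/- libraries 1 to 4, so the groups did not overlap. The mean log2(CPM + 1) differed by -3.47 (exact permutation test, two-sided, p = 0.0286, the smallest that 4 against 4 libraries allow), while edgeR gave a log2 fold change of -3.46 ± 1.18 (SE) and an adjusted p of 0.341 over all genes. The remaining reads of the deleted gene summed to 168 counts over 4 libraries, and the deposited table does not say which part of the gene they cover. The 9 Mif pseudogenes in the table held 247 counts in the Apoe-/- group and 58 in the Apoe-/-Mif-/- group, and reads could be split between such copies and the gene.

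Other members of the Mif pathway did not pass the test. Of the 8 listed genes, Mif included, 6 were tested, 4 of them higher and 2 lower, and the receptors Cxcr4 and Cxcr2 had too few reads. Cd74, the invariant chain of MHC class II and the surface receptor of MIF, stood at 109.6, 184, 261 and 197 CPM in the Apoe-/- libraries and at 749, 274, 941 and 233 CPM in the Apoe-/-Mif-/- libraries (log2 fold change 1.55 ± 0.80, edgeR adjusted p = 0.718). Apoe-/-Mif-/- libraries 1 to 3 were above every Apoe-/- library for Cd74, while Apoe-/-Mif-/- library 4, at 233 CPM, lay below the 261 CPM of Apoe-/- library 3. Ddt, the closest relative of Mif, stood at 177, 4.56, 6.64 and 1.88 CPM against 5.89, 19.3, 4.06 and 0.463 CPM, with a single high library in the Apoe-/- group and a log2 fold change that turned from -2.66 to 0.76 without it. The atypical chemokine receptor Ackr3 (log2 1.79), the signalling partner Cd44 (log2 0.51) and the MIF-binding signalosome subunit Cops5 (log2 2.31) overlapped between the groups, with edgeR adjusted p-values of 0.874, 0.973 and 0.839. Apoe transcripts were still counted in all 8 libraries at 3.08 to 111 CPM, and the groups overlapped; which part of that deleted gene the reads cover is not given.

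Across all genes, 5 were called at an adjusted p under 0.05, all of them lower without Mif (0.047% of those tested), and 0 higher (0%). At an unadjusted p under 0.05 edgeR counted 188 higher genes (1.77%) and 592 lower genes (5.57%), and DESeq2, run as an alternative, called 42 higher and 168 lower genes after adjustment. The groups did not overlap for 165 higher genes (1.55%) and 243 lower genes (2.29%). The median log2 fold change over all genes was -0.18, with 45.1% of genes above 0 and 54.9% below. Of the 592 lower genes, 498 (84.1%) had their highest level in Apoe-/- library 1 or 4. Of the 188 higher genes, 114 (60.6%) peaked in Apoe-/-Mif-/- library 4. Over all 10634 tested genes, 1914, 927, 1308 and 1712 peaked in Apoe-/- libraries 1 to 4, and 1749 in Apoe-/-Mif-/- library 4. Lower genes tend by their direction to peak in the Apoe-/- group, and higher genes in the other, so part of both shares follows from direction. For 27.4% of all tested genes, 1 of the 8 libraries held more than 50% of the summed CPM. With both Apoe-/- libraries 1 and 4 left out, 0 genes were called. Leaving out 1 library at a time gave 0 calls without Apoe-/- library 1 or without any 1 of the 4 Apoe-/-Mif-/- libraries, 2 calls without Apoe-/- library 4, and 21 and 17 calls without Apoe-/- libraries 2 and 3. With 1 of the 42-week libraries left out, which share the estimate of spread, 0 to 8 genes were called.

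**Figure D1:**
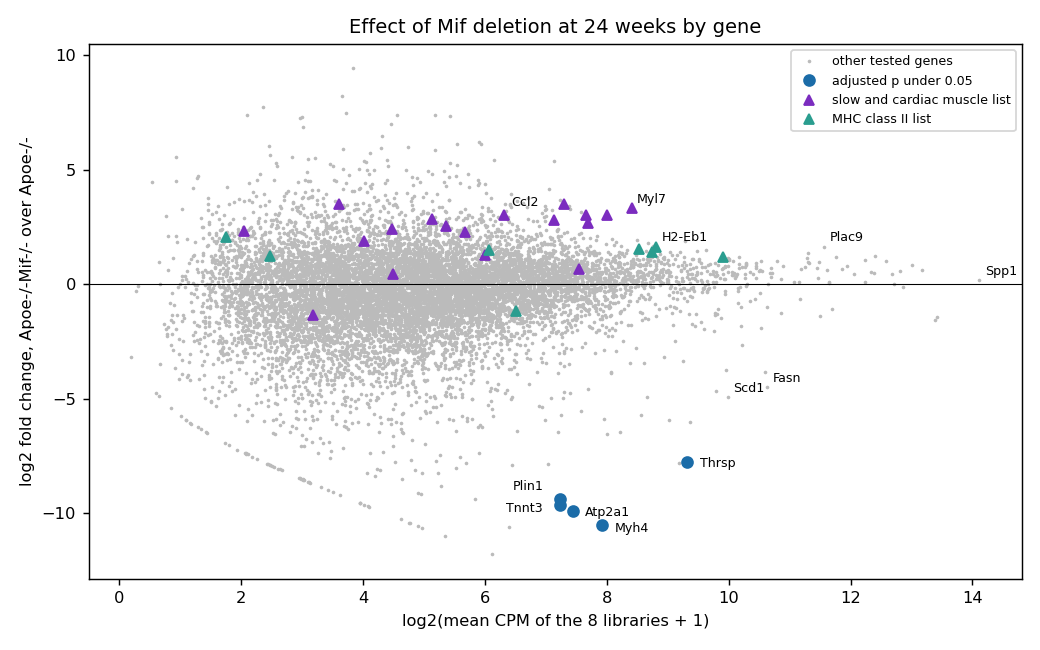
Log2 fold change without Mif at 24 weeks (vertical axis) against log2(mean CPM of the 8 libraries + 1) (horizontal axis) for the 10634 tested genes, each a grey point. The 5 called genes (blue) lie far below 0, members of the slow and cardiac muscle list (purple) lie mostly above 0, as do those of the MHC class II list (green).

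Fat genes were lower without Mif, and 2 of the 5 calls were among them. Thrsp, a regulator of fatty acid synthesis in fat and liver, stood at 3931, 18.9, 124 and 1007 CPM in the Apoe-/- libraries and at 1.31, 8.20, 3.45 and 10.2 CPM without Mif, and no library without Mif reached the lowest Apoe-/- library. It fell by 7.76 on the log2 scale (SE 1.37, edgeR adjusted p = 0.0191). Plin1, which coats the lipid droplet of adipocytes, stood at 708, 1.01, 67.3 and 410.4 CPM against 0.655, 0.410, 0.203 and 0.463 CPM and fell by 9.39 (SE 1.91, adjusted p = 0.0466), again without overlap, although Apoe-/- library 2 held only 1.01 CPM. Without Apoe-/- libraries 1 and 4 the log2 fold changes were -3.64 for Thrsp and -6.30 for Plin1, and neither was called.

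The white adipocyte list had 21 of its 22 genes tested, and all 21 were lower, 16 at an unadjusted p under 0.05, with 1 called and a median log2 fold change of -3.85 (all genes: -0.18). Over all tested genes, 5.57% were lower at that p and 0.047% were called. Its summed level was 38554, 1119, 3752 and 9552 CPM in the Apoe-/- libraries and 655, 1488, 1571 and 1373 CPM in the Apoe-/-Mif-/- libraries, so libraries 1 and 4 of the Apoe-/- group were high, library 3 was intermediate, and library 2 lay among those without Mif. Car3, a carbonic anhydrase abundant in adipocytes, followed the same order at 1025, 6.75, 245 and 749.9 CPM against 3.27, 3.28, 3.86 and 11.1 CPM (log2 -6.56 ± 1.40, edgeR adjusted p = 0.0690). Dgat2, which makes triglyceride, Gpd1, which supplies its glycerol backbone, and Pck1, a step of glycerol synthesis, had log2 fold changes of -5.71, -5.91 and -6.46 with edgeR adjusted p-values of 0.105, 0.150 and 0.161. Gpihbp1, which anchors lipoprotein lipase to capillaries and is outside the list, stood at 794, 1.52, 13.7 and 107 CPM against 4.58, 3.08, 4.26 and 11.1 CPM. Without Apoe-/- libraries 1 and 4 the list median was -0.51. With all libraries kept, DESeq2 called 10 of 20 white adipocyte genes (210 genes over all), among them Car3, Dgat2, Gpd1, Pck1 and Plin1.

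Genes of fatty acid synthesis followed the same order of libraries. Of 18 lipogenesis genes, all tested, 17 were lower and 1 higher, with a median of -2.87. At an unadjusted p under 0.05, 10 were lower, against 5.57% of all genes. Fasn, the fatty acid synthase, stood at 9880.3, 197, 332 and 1768 CPM against 58.9, 272, 187 and 19.9 CPM (log2 -4.50 ± 1.12, edgeR adjusted p = 0.137), and Scd1, the stearoyl-CoA desaturase, at 4355, 67.4, 238 and 3186 CPM against 21.0, 66.2, 136 and 35.2 CPM (-4.92 ± 1.12, adjusted p = 0.100). For both, Apoe-/- library 2 lay within the range of the libraries without Mif. Mlxipl, the carbohydrate-sensing transcription factor ChREBP, and Ces1d, a carboxylesterase of adipocytes, stood at log2 -7.86 and -6.45 (edgeR adjusted p = 0.100 and 0.100), and of the pair Ces1d did not overlap between the groups. DESeq2 called 7 of 18 lipogenesis genes (210 genes over all), among them Fasn, Scd1, Mlxipl and Thrsp.

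**Figure D2:**
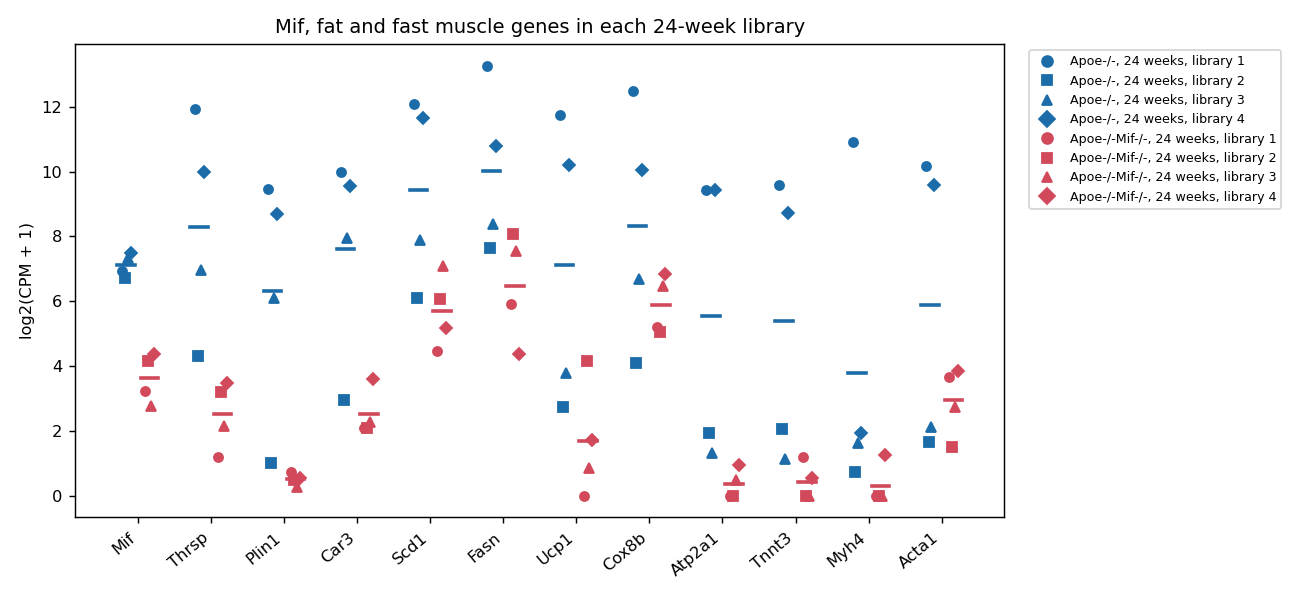
Log2(CPM + 1) of Mif and of 11 fat and fast muscle genes in each of the 8 libraries at 24 weeks, with the mean of each group as a bar. Blue circles and diamonds (Apoe-/- libraries 1 and 4) lie highest for the fat and muscle genes other than Myh4, where library 1 alone is high at 1933 CPM.

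Brown fat genes had the lowest median of the 33 lists, -4.66, with 9 of 14 genes tested, all 9 lower and 6 at an unadjusted p under 0.05 (against 5.57% of all genes). Ucp1, the uncoupling protein that makes heat, stood at 3448, 5.74, 12.8 and 1181 CPM against 0, 16.8, 0.812 and 2.31 CPM (log2 -7.81 ± 1.71, edgeR adjusted p = 0.0810). The lipid droplet protein Cidea and the respiratory subunit Cox8b stood at log2 -6.01 and -4.66 (edgeR adjusted p = 0.100 and 0.179). Ucp1 and Cidea were below 50 CPM in Apoe-/- libraries 2 and 3, and without libraries 1 and 4 the Cox8b value turned to 0.16. The median of the list was then -0.89. With all libraries kept, DESeq2 called 5 of 9 brown adipocyte genes (210 genes over all): Cidea, Cox8b, Elovl3, Otop1 and Ucp1.

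Transcripts of oxidative metabolism were mostly lower without Mif, as those of fat were. Of 23 respiratory chain genes all 23 were lower, 4 at an unadjusted p under 0.05, with a median of -1.50, and of 18 tested beta-oxidation genes 17 were lower, 9 at that p, with a median of -2.49. Lower genes at that p were 5.57% of all tested genes. The groups did not overlap for Ndufs7, a subunit of complex I, at 2679.7, 257, 407 and 403 CPM against 170.3, 228, 176 and 103 CPM (log2 -2.47 ± 0.85, edgeR adjusted p = 0.344). Uqcrfs1, the Rieske iron-sulfur protein of complex III (-2.92), Mpc2, a subunit of the mitochondrial pyruvate carrier (-2.74), and Ldhb, a lactate dehydrogenase subunit (-2.25), did not overlap either. These 3 had edgeR adjusted p-values between 0.344 and 0.596, and DESeq2 called Uqcrfs1 (adjusted p = 0.0492). They and Ndufs7 were among the abundant genes named for not overlapping, so their lack of overlap restates that choice. Over all tested genes, 2.29% were lower without overlap. Of the respiratory chain list edgeR called 0 genes and DESeq2 1, and of the beta-oxidation list 0 and 2 (Eci1 and Hadh). Over all genes DESeq2 called 210, 168 of them lower, so 1 call among 23 respiratory chain genes says little about that list. The fatty acid oxidation enzymes Acaa2 and Hadh stood at log2 -3.16 and -3.86. The mitochondrially encoded mt-Co1 was at 37350.0, 2387, 3961 and 19853 CPM against 3097, 3892, 3415 and 13399 CPM, and without Apoe-/- libraries 1 and 4 its log2 fold change turned from -1.42 to 0.89. The respiratory chain median was then 0.00406.

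Fast muscle genes were high in Apoe-/- library 1 and, except for Myh4, in library 4, and 3 of them were called. Atp2a1, the calcium pump of fast fibres, stood at 687, 2.87, 1.52 and 688 CPM against 0, 0, 0.406 and 0.925 CPM and fell by 9.90 on the log2 scale (SE 2.00, edgeR adjusted p = 0.0466). Tnnt3, the fast troponin T, stood at 772, 3.21, 1.20 and 421 CPM against 1.31, 0, 0 and 0.463 CPM (adjusted p = 0.0466), and Myh4, the myosin of the fastest fibres, at 1933, 0.675, 2.07 and 2.81 CPM against 0, 0, 0 and 1.39 CPM (adjusted p = 0.0466). Only the Atp2a1 values did not overlap, by 1.52 against 0.925 CPM, and the Myh4 call rested on Apoe-/- library 1 (log2 -2.39 without it). Each of the other 2 genes had only 3 counts in the whole Apoe-/-Mif-/- group, which gives ratios of summed levels, Apoe-/- over Apoe-/-Mif-/-, of 644 for Tnnt3 (95% exact binomial interval 220.2 to 3125) and 856 for Myh4 (293 to 4150), intervals that cover counting error only.

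The fast muscle list had 12 of 20 genes tested, 11 lower and 1 higher, with a median of -3.40 that turned to 0.30 without Apoe-/- libraries 1 and 4. Its summed level was 7234, 585, 453 and 4657 CPM in the Apoe-/- libraries and 468, 785, 572 and 1045 CPM without Mif. Acta1, the skeletal muscle actin, stood at 1161, 2.19, 3.38 and 775 CPM against 11.8, 1.85, 5.68 and 13.4 CPM (log2 -5.90, edgeR adjusted p = 0.226). Without those libraries the log2 fold change of Acta1 was 1.51, and those of Atp2a1, Tnnt3 and Myh4 were -2.62, -2.44 and -1.995. With all libraries kept, DESeq2 gave a p-value for 10 of the 12 tested genes. It called 4 of them (210 genes over all): Acta1, Atp2a1, Tnni2 and Tnnt3. Myh4 was not called, and whether it was among the genes without a p-value is not given here.

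The promoters of 2 called muscle genes are shown because both genes were high in the same library. They span the 250 bases before the RefSeq start site in build GRCm38.p6, which differs from the GRCm39 build of the alignments. Capitals mark TATAAA, the TATA box, CAGCTG, an E-box form bound by muscle regulators such as MyoD, and the consensus of the muscle factor MEF2, on either strand. Myh4 lies at chr11:67237562-67237811 on the plus strand, and Atp2a1 at chr7:126463074-126463323 on the minus strand.
Myh4: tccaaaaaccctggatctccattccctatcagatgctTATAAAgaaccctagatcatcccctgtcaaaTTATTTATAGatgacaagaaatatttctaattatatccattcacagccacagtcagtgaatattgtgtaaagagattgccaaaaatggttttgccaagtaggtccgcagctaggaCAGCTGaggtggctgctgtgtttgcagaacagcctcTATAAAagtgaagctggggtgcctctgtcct
Atp2a1: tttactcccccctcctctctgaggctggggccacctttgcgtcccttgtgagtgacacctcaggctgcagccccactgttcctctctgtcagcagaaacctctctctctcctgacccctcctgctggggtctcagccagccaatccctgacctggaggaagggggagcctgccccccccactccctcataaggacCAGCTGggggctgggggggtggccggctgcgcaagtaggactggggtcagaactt
The Myh4 window holds 3 TATAAA matches, 1 CAGCTG match and 1 MEF2 match, which overlaps the middle TATAAA match, and the Atp2a1 window holds 1 CAGCTG match. TATAAA occurs in 12.4%, CAGCTG in 13.0% and the MEF2 consensus in 2.92% of the 32851 promoter windows of the same length. The Thrsp and Plin1 windows hold none of the motifs searched.

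Lymphoid gene lists had their highest summed level in Apoe-/- library 4. Of 12 tested T and NK cell genes (20 listed) 11 were lower, 6 at an unadjusted p under 0.05, and of 7 tested thymocyte genes (13 listed) all 7 were lower, 3 at that p, with medians of -3.56 and -3.94. Lower genes at that p were 5.57% of all tested genes. Cd8b1, the CD8 beta chain, stood at 24.2, 1.69, 10.5 and 1251 CPM against 16.4, 0.205, 27.2 and 3.70 CPM (log2 -4.76, edgeR adjusted p = 0.304), and Cd3g, a chain of the T cell receptor complex, at 1.01, 0.169, 1.85 and 534 CPM against 5.24, 0, 0.406 and 6.94 CPM (-5.44, adjusted p = 0.472). Ighm, the IgM heavy chain, stood at 20.2, 28.9, 182 and 1772 CPM against 18.3, 26.9, 44.6 and 46.7 CPM. For all 3 genes Apoe-/- library 4 was highest. Without that library Cd3g turned to 1.56 and the T and NK cell median to 0.79. Without libraries 1 and 4 the T and NK cell and thymocyte medians were 1.23 and 0.93. Ighm did not turn: its log2 fold change was -1.65 without both, and -4.25 to -1.18 with 1 library left out. The B and plasma cell list had 6 of 17 genes tested, 2 higher and 4 lower. Its summed level was 364, 546, 1255 and 2670 CPM against 439, 782, 388 and 316 CPM.

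In the opposite direction, heart muscle genes were higher in every Apoe-/-Mif-/- library. Of 21 slow and cardiac muscle genes 18 were tested, 17 of them higher, 8 at an unadjusted p under 0.05 (against 1.77% of all genes), and for 12 the groups did not overlap (against 1.55% of all genes). The median log2 fold change was 2.59, and edgeR called 0 genes of the list. DESeq2 called 4 of 17 (Myl7, Nppa, Tnnt2 and Myh6), and over all genes 42 higher and 168 lower ones. The summed level of the list was 683, 405, 376 and 813 CPM in the Apoe-/- libraries, 2217, 1766, 2113 and 6309 CPM in the Apoe-/-Mif-/- libraries, and between 324 and 1444 CPM in the 8 libraries at 42 weeks. All 4 libraries without Mif at 24 weeks thus lay above the other 12, and library 4 was the highest.

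Members of the list that encode contractile proteins and hormones of the atrium separated the groups. Myl7, the atrial regulatory myosin light chain, stood at 147, 30.2, 27.9 and 41.6 CPM in the Apoe-/- libraries and at 439, 346, 415 and 1263 CPM without Mif (log2 fold change 3.32 ± 0.95, edgeR adjusted p = 0.226). Nppa, atrial natriuretic peptide, stood at 55.0, 19.1, 11.8 and 16.6 CPM against 212, 167, 186 and 587 CPM (3.49 ± 1.14, adjusted p = 0.295), and Tnnt2, cardiac troponin T, at 86.9, 26.7, 30.6 and 76.6 CPM against 276, 274, 394 and 873 CPM (3.04 ± 0.95, adjusted p = 0.290). In each of these genes the lowest library without Mif was above the highest Apoe-/- library, and DESeq2 gave adjusted p-values of 0.0282 for Myl7, 0.0149 for Nppa and 0.0282 for Tnnt2.

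Further heart muscle genes had the same order of groups. Myh6, the alpha myosin heavy chain, stood at 68.7, 24.99, 27.7 and 53.8 CPM against 258, 201, 226 and 742 CPM, and Sln, the atrial calcium pump inhibitor sarcolipin, at 35.9, 9.29, 6.97 and 9.07 CPM against 128, 103, 113 and 377 CPM. The atrial light chain Myl4 (log2 2.80), the brain natriuretic peptide gene Nppb (3.50) and the slow and cardiac troponin C gene Tnnc1 (2.84) did not overlap between the groups, with edgeR adjusted p-values between 0.490 and 0.681. Without Apoe-/- libraries 1 and 4 the list median was 3.90. It was 1.85 to 3.16 with any 1 of the 8 libraries left out and 2.37 to 3.03 under 9 other settings, and the value for Myl7 ranged from 2.62 to 4.22 with 1 library left out.

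The ratios of these genes to Myl7 differed in how far they ranged among the 4 libraries without Mif. Tnnt2 ranged most of the 5, with 62.7 to 95.01 counts for every 100 of Myl7 there, against 59.1 to 184 in the Apoe-/- libraries and 80.2 to 228 in the 8 libraries at 42 weeks. Nppa had 44.9 to 48.2 such counts, against 37.5 to 63.1 and 9.30 to 58.6 in the same order, and Sln had 27.3 to 29.9, 21.8 to 30.7 and 11.6 to 28.5. The lowest values at 42 weeks, 9.30 and 11.6, rest on 4 Nppa and 5 Sln counts in Apoe-/- library 1 of 42 weeks. Myl4 had 37.4 to 45.0, 33.1 to 94.4 and 34.9 to 117, and Myh6 had 54.4 to 58.7, 46.7 to 129 and 81.8 to 166. Of all tested genes, 22 (0.207%) were higher in all 4 Apoe-/-Mif-/- libraries than in each of the other 12, and 8 of the 22 were among the 18 tested members of the slow and cardiac list. Sln was a further one, outside the list, as was F7, coagulation factor VII, at 1.01, 7.43, 45.3 and 4.69 CPM against 154, 154, 113 and 197 CPM. In the other direction 20 genes (0.188%) were lower in all 4 than in each of the other 12. Since these 4 libraries were also the only ones of plate row C, genotype and row cannot be told apart for this pattern.

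**Figure D3:**
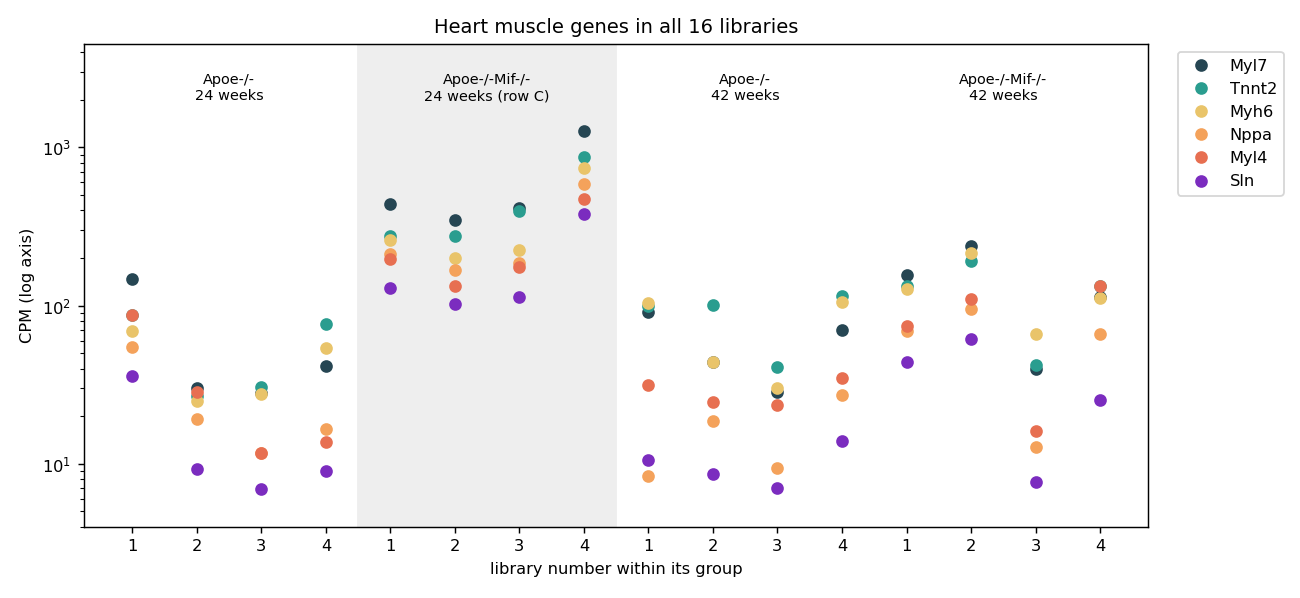
CPM (log axis) of 6 heart muscle genes in all 16 libraries, grouped by genotype and diet duration, with plate row C shaded. Myl7 (dark points) lies between 346 and 1263 CPM in the shaded libraries and between 27.9 and 239.6 CPM elsewhere.

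The promoters of Myl7 and Nppa, an atrial light chain and an atrial hormone whose levels are given above, are shown for the same 250 bases and build. Capitals here mark the same motifs and GATAA, a core letter string of GATA factor sites, on either strand. Myl7 lies at chr11:5898783-5899032 on the minus strand and Nppa at chr4:148000472-148000721 on the plus strand.
Myl7: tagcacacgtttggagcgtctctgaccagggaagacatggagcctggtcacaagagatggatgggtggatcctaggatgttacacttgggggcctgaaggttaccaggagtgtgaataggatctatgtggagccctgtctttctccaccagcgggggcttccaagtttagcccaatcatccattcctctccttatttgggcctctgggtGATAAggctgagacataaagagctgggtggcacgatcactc
Nppa: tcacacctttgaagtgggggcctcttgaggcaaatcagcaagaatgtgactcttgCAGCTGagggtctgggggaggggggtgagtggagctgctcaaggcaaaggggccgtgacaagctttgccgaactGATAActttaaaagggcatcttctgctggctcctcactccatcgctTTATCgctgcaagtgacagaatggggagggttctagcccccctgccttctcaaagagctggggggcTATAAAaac
Myl7 holds 1 GATAA match, and Nppa holds 2 GATAA matches, 1 TATAAA match and 1 CAGCTG match. GATAA is in 22.6% of windows, so its presence in both is a description of these sequences only. Of the 7 genes looked up, 6 had a promoter in the RefSeq table, and Tnnt3 is named only.

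Macrophage and antigen presentation genes were mostly higher without Mif, and edgeR called 0 of them at 24 weeks, while DESeq2 called 1, Fcgr1 (adjusted p = 0.0349). Of 17 tested macrophage genes (18 listed) 15 were higher, 1 at an unadjusted p under 0.05, with a median of 0.86, and of 8 tested MHC class II genes (9 listed) 7 were higher, 1 at that p, with a median of 1.46. Higher genes at that p were 1.77% of all tested genes. Fcgr1, the high-affinity IgG receptor of macrophages, stood at 0, 7.09, 29.6 and 16.6 CPM against 128, 99.1, 88.7 and 361 CPM without overlap (log2 3.66 ± 1.51, edgeR adjusted p = 0.533). H2-Ab1, a class II beta chain, stood at 385, 447, 703 and 797 CPM against 1153, 1008, 2007 and 1171 CPM (1.19 ± 0.64, edgeR adjusted p = 0.739). Its groups did not overlap either, but H2-Ab1 was among the abundant genes named for not overlapping. The general macrophage genes C1qa, a complement component (0.86), and Tyrobp, a signalling adaptor (1.39), overlapped. The summed macrophage level was 2411, 10286, 19494 and 3949.6 CPM against 10067, 21794, 14848 and 11534 CPM, with Apoe-/- libraries 1 and 4 lowest and library 3 close to the highest library without Mif, and the list median without libraries 1 and 4 was 0.18.

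Foam cell and lysosome genes were higher in 18 of 22 tested, 3 at an unadjusted p under 0.05 (against 1.77% of all genes). Their median of 0.47 turned to -0.03 without Apoe-/- libraries 1 and 4. Fabp5, which binds fatty acids in macrophages, stood at 131, 238, 389.8 and 68.1 CPM against 513, 1077, 499.8 and 525 CPM without overlap (log2 1.66 ± 0.73, edgeR adjusted p = 0.596). Ctsd, the lysosomal protease cathepsin D (1.22), and Lgals3, the macrophage lectin galectin-3 (1.20), overlapped with edgeR adjusted p-values of 0.499 and 0.628. Spp1, osteopontin, stood at 3542, 23337, 34438 and 5179 CPM against 25193, 28693, 8965 and 12667 CPM, a difference of 0.18 that turned to -0.64 without libraries 1 and 4.

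Chemokine genes were higher in 13 of 18 tested (25 listed), with a median of 1.08, 2 of them at an unadjusted p under 0.05 (against 1.77% of all genes). Ccl2, the main attractant of monocytes, stood at 2.02, 27.5, 30.5 and 2.501 CPM in the Apoe-/- libraries and at 132, 176, 93.3 and 179 CPM without Mif (log2 3.20 ± 1.32, edgeR adjusted p = 0.533). Ccl8, another monocyte attractant, stood at 4.55, 7.60, 22.3 and 3.13 CPM against 232, 39.4, 32.1 and 37.0 CPM (3.17 ± 1.50, adjusted p = 0.654). Every library without Mif was above every Apoe-/- library for both genes. The chemokine median was 0.71 without Apoe-/- libraries 1 and 4.

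**Figure D4:**
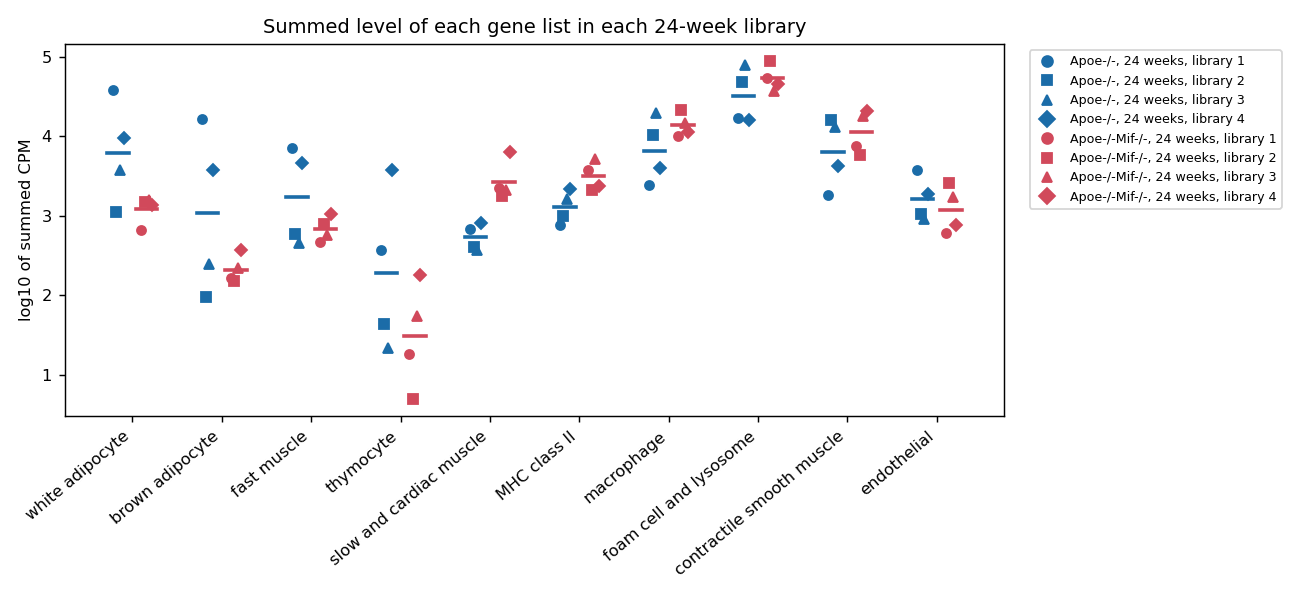
Log10 of the summed CPM of 10 gene lists in each of the 8 libraries at 24 weeks, with the mean of the log values of each group as a bar. Fat, fast muscle and thymocyte lists are highest in Apoe-/- library 1 or 4, the slow and cardiac list is higher in all 4 libraries without Mif (1766 to 6309 CPM against 376 to 813 CPM), and the other lists overlap.

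Vessel wall genes did not separate the groups. Of 16 contractile smooth muscle genes 13 were higher, 0 at an unadjusted p under 0.05, with a median of 0.55 (-0.07 without Apoe-/- libraries 1 and 4). The summed level of these arterial markers was 1844, 16309, 13184 and 4259 CPM in the Apoe-/- libraries and 7528, 5837, 17916 and 20875 CPM without Mif, so they were present in every library. Myl9, the smooth muscle myosin light chain, stood at 257, 2890.2, 1764 and 579.5 CPM against 961, 1083, 2762 and 4887 CPM. Of 16 tested endothelial genes (18 listed) 11 were lower, with a median of -0.56 and 1 at that p (against 5.57% of all genes). This was Kdr, the VEGF receptor 2, at 528, 1.18, 3.81 and 22.5 CPM against 1.96, 15.2, 1.42 and 3.70 CPM, a difference that rested on Apoe-/- libraries 1 and 4 and turned from -4.61 to 1.13 without them. Esam, an endothelial junction protein, had a log2 fold change of -2.12 (0.16 without them). The matrix genes Col1a1, a fibrillar collagen chain (1.01 ± 0.58), and Mgp, matrix Gla protein, an inhibitor of calcification (0.57 ± 0.52), overlapped, with edgeR adjusted p-values of 0.783 and 0.930.

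Abundant higher genes that were named for not overlapping between the groups separated them by small amounts. Their lack of overlap restates that choice. Over all tested genes, 165 (1.55%) were higher without overlap. Crip1, a LIM domain protein, stood at 511, 1659.9, 1880.4 and 669 CPM against 1957, 2335, 2554 and 2653 CPM, and Lgals1, galectin-1, at 1372, 1609.5, 1561 and 485 CPM against 1782, 2114, 2598 and 1761 CPM. Arpc1b, a subunit of the actin-branching Arp2/3 complex (1.20), Emp3, a membrane protein (1.10), Calr, the chaperone calreticulin (1.11), and Rrbp1, a ribosome-binding protein of the endoplasmic reticulum (1.18), also did not overlap. Of 18 ribosomal protein genes 17 were higher, with a median of 0.65 and 0 at an unadjusted p under 0.05. Rpl8 (0.42), which was named by the same rule, and Rpl32 (1.29) were the 2 of the 18 that were higher without overlap. The edgeR adjusted p-values of these 8 genes lay between 0.699 and 0.965. Plac9, which encodes a small secreted protein, stood at 1292, 2606, 1159.6 and 869.6 CPM against 3845, 2248, 2921 and 9386 CPM, with 1 value of each group overlapping (1.63 ± 0.53, edgeR adjusted p = 0.295).

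Genes of low level gave larger values. Spin1, a chromatin reader, stood at 1.01, 4.56, 0.653 and 0.313 CPM against 19.6, 5.74, 22.5 and 428 CPM, and Agap1, a regulator of membrane traffic, at 2.02, 11.3, 11.98 and 0.313 CPM against 30.1, 33.4, 52.6 and 969 CPM. In both, Apoe-/-Mif-/- library 4 was far above the rest. Rmc1, a regulator of endosomal traffic, stood at 0.505, 6.42, 11.4 and 4.38 CPM against 74.0, 48.8, 69.2 and 287 CPM. The edgeR adjusted p-values were 0.290, 0.291 and 0.320.

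Of 12 tested cholesterol synthesis genes (16 listed) 10 were lower, with a median of -1.50 (-0.43 without Apoe-/- libraries 1 and 4). Of 9 tested senescence genes (11 listed) 7 were higher, with a median of 1.06, and Igfbp3, an IGF-binding protein, was the one at an unadjusted p under 0.05, at 4.04, 1.35, 0.653 and 5.94 CPM against 21.6, 47.8, 89.5 and 32.4 CPM. Higher genes at that p were 1.77% of all tested genes. Pcna, the DNA replication clamp, was at 1.01, 2.19, 6.10 and 5.63 CPM against 21.6, 35.5, 53.0 and 129 CPM, and neither gene overlapped (edgeR adjusted p = 0.483 and 0.429). Pcna belongs to the cell cycle list, which did not share its direction. Of the 12 tested cell cycle genes 5 were higher and 7 lower, with a median of -0.35. At an unadjusted p under 0.05, 1 was higher and 1 lower. The 14 other lists, cell cycle included, held 124 tested genes and had medians from -2.18 to 1.70. Of these genes 3 were higher and 3 lower at an unadjusted p under 0.05.

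The effect of Mif deletion differed between 24 and 42 weeks for some of these genes. The test of that difference, the interaction of genotype and diet duration over 16 libraries, called 73 genes (0.686%), 62 with a lower effect at 24 weeks (0.583%) and 11 with a higher one (0.103%). All 73 had opposite signs at the 2 durations, which choosing genes by a large difference of effects favours. Among the 24-week libraries, 58 of the 73 peaked in Apoe-/- library 1 or 4, where 1914 and 1712 of the 10634 tested genes peaked. Of the 73, 12 were in a fat or lipogenesis list and 4 in the fast muscle list. The white adipocyte, brown adipocyte, lipogenesis and fast muscle lists had 21, 9, 18 and 12 tested genes, some of them shared. The 42-week contrast alone called 0 genes by edgeR (0%), with 1835 (17.3%) at an unadjusted p under 0.05. The 2 comparisons share no library, and 48.8% of genes had the same sign in both.

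Thrsp had a log2 fold change of -7.76 at 24 weeks and 1.61 at 42 weeks (difference -9.37, edgeR adjusted p = 0.0136). Plin1 went from -9.39 to 3.19 (-12.58, adjusted p = 0.0136), Ucp1 from -7.81 to 4.08 (-11.89, adjusted p = 0.0136), and Gpihbp1 from -5.31 to 5.58 (-10.89, adjusted p = 0.0204). At 42 weeks Plin1 stood at 6.32, 2.07, 78.5 and 4.88 CPM with Mif and 13.9, 458, 1.68 and 378 CPM without. Ucp1 stood there at 23.2, 12.1, 15.1 and 30.0 against 21.1, 1279, 5.99 and 52.9 CPM. Gpihbp1 stood at 14.8, 2.66, 3.64 and 11.9 against 646, 39.0, 0.958 and 824 CPM. In each, the 42-week groups overlapped, and the high values without Mif came from some libraries only. H2-Eb1, whose product presents antigen to T cells, was called in the other direction: its CPM was 134, 109.6, 261 and 366 against 838, 288, 933 and 662 at 24 weeks, and its log2 fold change was 1.64 there and -3.17 at 42 weeks (4.82, edgeR adjusted p = 0.0388). Neither edgeR nor DESeq2 called any of the slow and cardiac genes for a difference between durations (1 of 18 and 0 of 17 tested genes at an unadjusted p under 0.05), and their list median was 2.59 at 24 weeks and 1.25 at 42 weeks. For Myl7 the difference was 2.09 (adjusted p = 0.457). With Apoe-/- libraries 1 and 4 of 24 weeks left out there were 0 interaction calls. There were also 0 without Apoe-/- library 1 of 24 weeks alone, without Apoe-/-Mif-/- library 1 of 24 weeks, or without Apoe-/- library 1, 2 or 4 of 42 weeks, and 14 to 124 without any other 1 library. The groups were confounded with plate row at 24 weeks: plate row differed between the genotypes there only, so row and duration effects cannot be told apart.

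**Figure D5:**
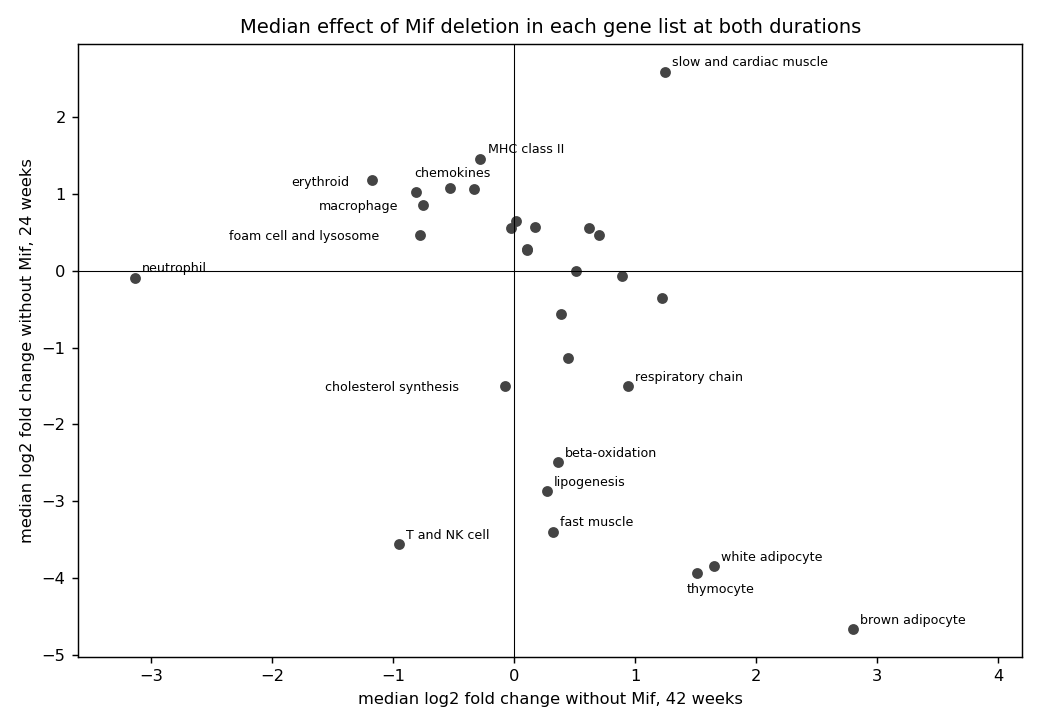
Median log2 fold change without Mif of each gene list with at least 5 tested members, at 42 weeks (horizontal axis) and at 24 weeks (vertical axis). White and brown adipocyte lists lie at lower right (-3.85 and -4.66 at 24 weeks against 1.65 and 2.80 at 42 weeks), and the slow and cardiac list lies at upper right.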

How the data were processed

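Counts came from polyadenylated RNA of 16 brachiocephalic artery samples, amplified by Smart-seq2 without molecular identifiers or strand information. The authors deposited whole-number counts per gene symbol, made from reads trimmed with cutadapt 1.18 and Trim Galore 0.6.4, examined with FastQC 0.11.5 and aligned with STAR 2.5.2b to GRCm39, per the submitters' processing notes, and its counting program and annotation are not given in the sources used here. A second table deposited by the authors, used only as an alternative, gave 9578 genes after variance stabilisation, in log2 units. A row with a blank name (at most 0.0026% of a library) and 2 reporter rows were left out.

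Genes were tested with the quasi-likelihood test of edgeR 4.0.16 (R 4.3.3, TMM scaling, filterByExpr with its default minimum of 10 counts, 10634 genes) in 1 fit over the 4 groups of 4, with 12 residual degrees of freedom and Benjamini-Hochberg adjustment. CPM used the same scaling. Levels of different genes are not compared, since the counts are not per length. Alternatives used DESeq2 1.42.0 and limma 3.58.1, and scripts were tested on simulated data. DESeq2 gave no p-value for some tested genes, so its list counts can be out of fewer genes than those of edgeR.

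Members, gene lists and tests were chosen with earlier results of these data known. The rule named the Mif pathway and Apoe, every called gene, the 15 genes of smallest p in each direction with 10 counts or more in 3 or more libraries of the higher group, the 10 most abundant genes, the 10 most abundant genes without overlap in each direction, and up to 3 genes of each list, 196 tested genes in all. Those printed are a subset chosen after their values, and how they held up under the alternatives, were seen. Sln, Myl4, Nppb, Tnnc1 and F7, the promoters, the motifs and the counts over 12 other libraries were also chosen after the values were seen.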

Additional observations from a re-analysis of the deposited data

Results flagged for a closer look

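Chance alone marks about 1 in 20 groups of 4 as holding a library far from the others, and 15 of the 192 groups examined (7.81%) were marked. In the Apoe-/- group at 24 weeks, library 1 stood far above the others for Myh4 (1933 CPM) and Sln (35.9 CPM), library 4 far above for Cd3g (534 CPM) and far below for Lgals1 (485 CPM). In the Apoe-/-Mif-/- group, library 4 stood far above the others for the mitochondrial share of reads (3.06%), mt-Co1 (13399 CPM), Car3 (11.1 CPM), Mlxipl (2.78 CPM), Myh4 (1.39 CPM) and Agap1 (969 CPM). The Myh4 and Mlxipl marks rest on few reads: libraries 1 to 4 held 0, 0, 0 and 3 Myh4 counts and 1, 2, 3 and 6 Mlxipl counts. Library 2 of that group was far above for Gpd1 (61.7 CPM), Fabp5 (1077 CPM) and Lgals3 (7993 CPM), and library 1 far above for Ccl8 (232 CPM) and far below for the summed white adipocyte list (655 CPM).

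The genotype effect differed between 24 and 42 weeks for 18 of the printed genes, given as the log2 effect at 24 weeks minus that at 42 weeks, each with an edgeR adjusted p under 0.05 for the interaction. Among fat genes the difference was -9.37 for Thrsp, -12.58 for Plin1, -5.71 for Scd1, -9.27 for Dgat2, -9.26 for Mlxipl, -10.62 for Ces1d, -7.65 for Gpd1, -8.67 for Pck1 and -10.89 for Gpihbp1. Among brown fat genes it was -11.89 for Ucp1, -8.85 for Cidea and -7.93 for Cox8b. Among muscle genes it was -11.67 for Atp2a1, -11.29 for Tnnt3, -10.61 for Myh4 and -8.99 for Acta1. It was -9.64 for Kdr, -10.89 for Gpihbp1 and 4.82 for H2-Eb1. The fitted values of genes with few counts in a group, such as Myh4 and Tnnt3, depend on the prior count. The part of plate row in these differences was not tested, because row and genotype cannot be told apart at 24 weeks.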

How the results depend on the processing

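The 5 calls at 24 weeks became 0 with size factors, limma voom with sample weights, limma on the deposited variance-stabilised values, counts under 1% of a row's maximum set to 0, the 24-week libraries alone, or (chosen after seeing the data) both Apoe-/- libraries 1 and 4 left out. They became 4 with robust dispersions, 1 with a stricter filter, 117 with no filter and 210 with DESeq2, which shared 4 of the 5. With 1 library left out they became 0 to 21. The 73 interaction calls became 0 with voom, with variance-stabilised values, with low counts set to 0 and with libraries 1 and 4 left out. They became 64 with size factors, 56 with a stricter filter and 91 with robust dispersions, which shared 60, 55 and 66 of the 73. They became 426 with no filter, 543 with DESeq2, and 0 to 124 with 1 library left out. The cause was not tested. The Mif difference kept its direction with 1 library left out (-3.72 to -3.19, exact permutation p = 0.0286 each). That p is the smallest that such small groups allow, so it adds nothing to the lack of overlap given above.

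Without Apoe-/- libraries 1 and 4, log2 fold changes turned to 0.39 for Ddt, 0.89 for Gpd1, 0.16 for Cox8b, 1.51 for Acta1, 0.93 for Cd8b1, 1.52 for Cd3g, 1.13 for Kdr, 0.16 for Esam, 0.22 for Acaa2, 0.89 for mt-Co1, -0.64 for Spp1 and -0.11 for Mgp. List medians turned to 0.0041 for respiratory chain, 0.30 for fast muscle, -0.070 for contractile smooth muscle, 0.90 for endothelial, -0.027 for foam cell and lysosome, 1.23 for T and NK cell and 0.93 for thymocyte. Without Apoe-/- library 1 Ddt turned to 0.76, Spp1 to -0.16 and the endothelial median to 0.18 (0.18 with voom). Without library 4 Cd3g turned to 1.56, Spp1 to -0.12 and the T and NK cell median to 0.79. Spp1 turned to -0.0625 without Apoe-/-Mif-/- library 2, and Apoe to 0.035 and 0.011 without library 2 of either group. With 1 library left out, the ranges were -3.87 to 0.76 for Ddt, -1.60 to 0.035 for Apoe, -6.38 to 1.56 for Cd3g, -0.16 to 0.83 for Spp1, -1.04 to 0.18 for endothelial and -3.95 to 0.79 for T and NK cell.

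Over all 196 tested genes that the rule named, printed or not, 28 turned without libraries 1 and 4, 21 with 1 library left out and 11 under the 9 other settings, and of the 33 lists 12, 8 and 7 did. No paired analysis was possible because the labels give the mice no numbers shared between groups. The libraries were not thinned to a common depth, so what depth limits was not tested, and Smart-seq2 reads are not independent molecules.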
